A study of Mus musculus with 2 samples.

Results

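The 10 genes described here encode the PGC-1 family of coactivators (Ppargc1a, Ppargc1b and Pprc1), the transcription factors through which that family acts on nuclear genes for mitochondria (Nrf1, Gabpa and Gabpb1), and the proteins that read the mitochondrial genome (Tfam, Tfb1m, Tfb2m and Polrmt). They were chosen by name, with earlier results of these data known, from 21900 protein-coding genes of the mouse RefSeq annotation (GRCm38.p6, which is mm10). The study profiled H3K9bhb, histone H3 carrying β-hydroxybutyrate on lysine 9, in CD8+ memory T cells from spleen of C57BL/6 OT-I mice, whose T cells carry a transgenic receptor for an ovalbumin peptide. Cells were activated for 3 days with that peptide at 200 ng/ml and interleukin-2 (IL-2) at 10 ng/ml, kept for 4 more days in IL-15 at 10 ng/ml and given β-hydroxybutyrate (BHB) for 3 days. There was 1 H3K9bhb ChIP library, made with 4 µg of antibody, and 1 library of input DNA without antibody; both share every culture step, and the labels state 70 M reads of 150 bp for each. No culture without BHB, no second ChIP library and no expression data were analysed here, so a summit is a place called in BHB-treated cells and carries neither a replicate error nor a change with BHB.

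PGC-1α and PGC-1β bind nuclear receptors and other transcription factors and raise the transcription of nuclear genes for respiration. NRF1 and the GABP complex, whose DNA-binding α subunit and activating β subunit are encoded by Gabpa and Gabpb1, act on many of these genes and on those for the mitochondrial transcription machinery. In mitochondria, TFAM packs and bends the DNA, TFB2M opens the promoter and POLRMT, the mitochondrial RNA polymerase, makes the transcript, while TFB1M methylates ribosomal RNA. Memory CD8+ T cells are known for a large respiratory reserve, and IL-15 is used in culture to obtain cells of that kind.

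Of the 10 genes, 3 had an H3K9bhb summit inside them or within 10 kb: Tfam, Tfb2m and Ppargc1a, with 1 summit each. Each of the 3 lay on the side where transcription starts. The Tfam summit was 88 bp upstream of the start listed by RefSeq, the Tfb2m summit lay in a promoter shared with the neighbouring gene Cnst, and the Ppargc1a summit was at the far upstream edge of the gene, 545.9 kb from the listed start. Ppargc1b, Pprc1, Nrf1, Gabpa, Gabpb1, Tfb1m and Polrmt had none. The share, 3 of 10 (30.0%, exact 95% interval 6.67 to 65.2, counting error only, genes taken as independent), stood beside 13.0% of all protein-coding genes with a summit by the same rule. That background lies inside the interval, so the list was not shown to differ from other genes at this size.

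A score in this list is the authors' −log10 p or q value at the summit, and the sources used here do not say which of the 2. Over the 2204 peaks the median score was 5.04, with quartiles of 3.33 and 6.78. Tfb2m scored 7.95, above the upper quartile and reached by 17.2% of peaks. Ppargc1a scored 4.54, below the median and reached by 56.6%. Tfam scored 3.17, below the lower quartile and reached by 80.4%. These values came in steps: 54, 83 and 57 of the 2315 summits carried exactly the scores of Tfb2m, Ppargc1a and Tfam. Each of the 3 peaks had a single summit.

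**Figure D1:**
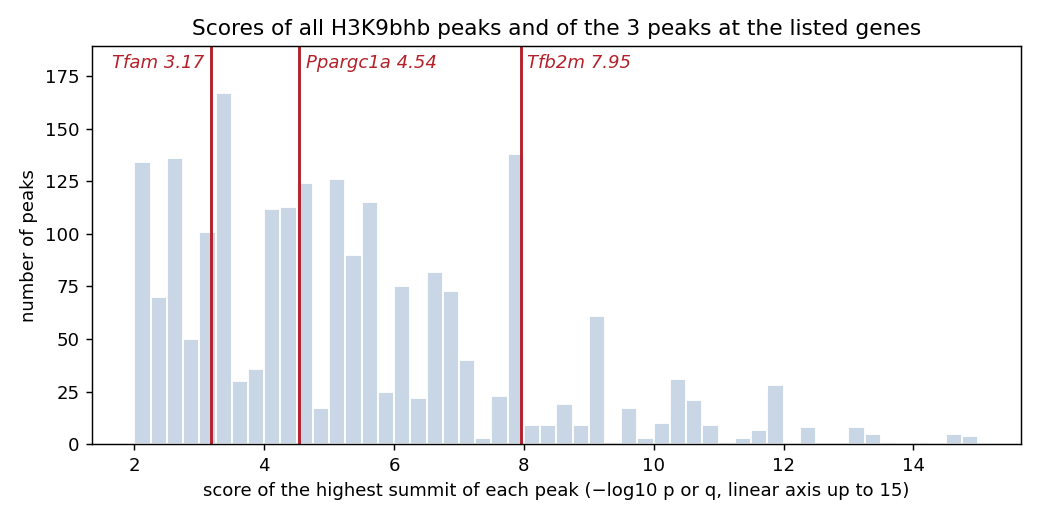
Number of peaks by score (−log10 p or q of the highest summit of each peak, up to 15; the 32 peaks above 15 are not drawn), with the 3 listed genes as red lines. Tfam at 3.17 and Ppargc1a at 4.54 lie below the median of 5.04, and Tfb2m at 7.95 lies above the upper quartile of 6.78.

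Positions across the whole list give the setting for these 3 summits. RefSeq lists promoter windows, and hence starts with a strand, for 17492 of the protein-coding genes and for 9 of the 10 genes described here. Of the 2204 peaks, 1501 (68.1%) lay within 1 kb of a listed start of a protein-coding gene. Of those, 74.2% were on the transcribed side of the nearest one. Few were at transcript ends: 40 peaks (1.81%) lay within 1 kb of one and of no listed start. A call alone does not show the mark, since 9 peaks were on the mitochondrial genome, which has no histones. Of the 9 genes with a listed start, Tfam and Tfb2m had a summit within 1 kb of it (22.2%), beside 9.18% of all protein-coding genes with one. The 1 kb window was chosen after the summits were seen. The Tfam and Tfb2m summits were both upstream of their own start. The start nearest to the Tfb2m summit, however, was that of the neighbouring gene Cnst, and the summit was downstream of it.

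Tfam, the packaging and initiation factor of mitochondrial DNA, lies on the minus strand of chromosome 10 (71225468 to 71238328, 12.9 kb). Its summit was at position 71238132 with a score of 3.17. It fell between 2 annotated beginnings of the gene, 196 bp inside the outermost transcript model and 88 bp upstream of the listed start at 71238044. The transcript end was 12.7 kb away. No other gene lay within 10 kb of the summit; the nearest, Ube2d1, a ubiquitin-conjugating enzyme gene, was 16.8 kb away, and the nearest other peak was 107 kb away. The sequence is printed because the summit lies within it: the 250 bases upstream of the listed start (RefSeq, GRCm38.p6, minus strand, chr10:71238045-71238294). The single capital marks the base under the summit, and the 7 capitals mark CCGGAAG, an ETS-type motif of the kind GABP binds, 47 to 41 bases before the start.
Tfam: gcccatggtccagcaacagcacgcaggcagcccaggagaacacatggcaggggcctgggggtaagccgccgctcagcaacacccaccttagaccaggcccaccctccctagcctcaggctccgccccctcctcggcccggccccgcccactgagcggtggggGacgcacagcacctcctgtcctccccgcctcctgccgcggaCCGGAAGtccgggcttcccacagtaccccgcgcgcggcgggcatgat

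CCGGAAG, on either strand, was found in 8.86% of the 32851 promoter windows of 300 bases that RefSeq lists. RefSeq lists windows for non-coding genes as well, so shares of windows are not limited to protein-coding genes. A match is a description of letters, not a bound site. The Tfam match lay downstream of the summit, between it and the start. Tfam, a target of NRF1 and GABP in textbook accounts, had no match to the NRF1 motif GCGCATGCG in its window.

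Tfb2m, which opens mitochondrial promoters for the polymerase, lies on the minus strand of chromosome 1 (179528052 to 179546305, 18.3 kb). Its summit, the highest-scoring of the 3 at 7.95, was at 179546566, outside the annotated gene by 261 bp and 290 bp upstream of the listed start at 179546276. On the other side of this promoter begins Cnst, which encodes consortin, a protein of the trans-Golgi network, on the plus strand (179546444 to 179627478). The 2 listed starts were 253 bp apart, and the summit lay 37 bp downstream of the Cnst start and 122 bp inside the annotated Cnst gene. The end of Cnst was thus nearer to the summit than the end of Tfb2m, and a summit in a divergent promoter cannot be assigned to either gene. With protein-coding genes alone counted, starts on both strands were found within 1 kb of 127 peaks (8.46% of the peaks near such a start). Apart from Cnst no other gene was within 10 kb of the summit.

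Shown next are the 250 bases upstream of Tfb2m, on its strand, which reach nearly to the Cnst start (RefSeq, GRCm38.p6, minus strand, chr1:179546277-179546526). Then follow 25 bases after the Tfb2m start (minus strand, chr1:179546248-179546272) and 25 bases around the summit on the Cnst strand (plus strand, chr1:179546554-179546578). In the first, capitals mark TGCGCA, an NRF1 half-site. In the second they mark the NRF1 motif GCGCATGCG on the opposite strand, and in the third the base under the summit.
Tfb2m: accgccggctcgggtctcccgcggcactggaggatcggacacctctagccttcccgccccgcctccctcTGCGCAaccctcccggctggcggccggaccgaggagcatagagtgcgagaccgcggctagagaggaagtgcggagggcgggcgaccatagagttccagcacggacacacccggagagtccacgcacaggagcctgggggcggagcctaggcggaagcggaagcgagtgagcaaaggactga
Tfb2m after the start: aggtcgttCGCATGCGCcattcgta
Cnst at the summit: cgcgcggggctgGaaacagacccgg

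The NRF1 motif GCGCATGCG occurred in 1.75% of all promoter windows and, among the 9 genes with a window, in that of Tfb2m, 12 to 20 bases after the start. TGCGCA, which reads the same on both strands, occurred in 7.76% of windows and stood 181 to 176 bases before the Tfb2m start. The window of Cnst overlaps that of Tfb2m and holds the same TGCGCA.

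Ppargc1a, which encodes the coactivator PGC-1α, is annotated on the minus strand of chromosome 5 over 661.6 kb (51454249 to 52115853). Its summit was at 52113663 with a score of 4.54, 2190 bp inside the upstream edge of the gene and 0.33% of the way along it. The start listed by RefSeq is at 51567725, which puts the summit 545.9 kb upstream of it and 659.4 kb from the transcript end. With the strand known, the edge beside the summit is the one where the outermost annotated transcript begins. Transcripts of Ppargc1a that begin far upstream of the usual promoter have been described in brain; no transcript was measured here. At the listed start itself no summit was called, and that start lay farther from a summit than any other listed start of the 10 genes except that of Tfb1m.

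The Ppargc1a summit lay far from other peaks. The nearest was 670 kb away, and 16.1% of peaks were as isolated or more, beside a median of 167 kb between a peak and its nearest neighbour. The Tfb2m peak was nearly as isolated, at 649 kb. No other gene lay within 10 kb: the nearest was the non-coding RNA gene Gm40302 at 16.7 kb, and the nearest protein-coding gene was Dhx15, an RNA helicase gene, at 36.5 kb. Of the 135 protein-coding genes as long as Ppargc1a or longer, 11 (8.15%) had a summit inside or within 10 kb. The share was 11.5% (26 of 227) for genes of 500 kb or longer and 18.6% for the longest of 5 equal classes of genes, which holds Ppargc1a. The sequence upstream of the listed start is shown as the counterpart of the Tfam promoter, a start without a summit (RefSeq, GRCm38.p6, minus strand, chr5:51567726-51567975). Its capitals mark CGTCA, which is TGACG on the opposite strand, the half-site of the cyclic AMP response element, 49 to 45 bases before the start.
Ppargc1a: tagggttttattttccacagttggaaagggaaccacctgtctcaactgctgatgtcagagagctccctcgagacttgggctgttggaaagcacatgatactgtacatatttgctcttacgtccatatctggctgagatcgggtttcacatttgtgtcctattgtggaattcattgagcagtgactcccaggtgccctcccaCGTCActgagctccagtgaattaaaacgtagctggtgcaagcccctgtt

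TGACG was found in 20.8% of promoter windows and the whole element TGACGTCA in 1.79%; none of the 9 genes had the whole element. The half-site was also present before the Tfb1m start, at 132 to 128 and at 87 to 83 bases, and before 1 of the 2 listed Gabpb1 starts.

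**Figure D2:**
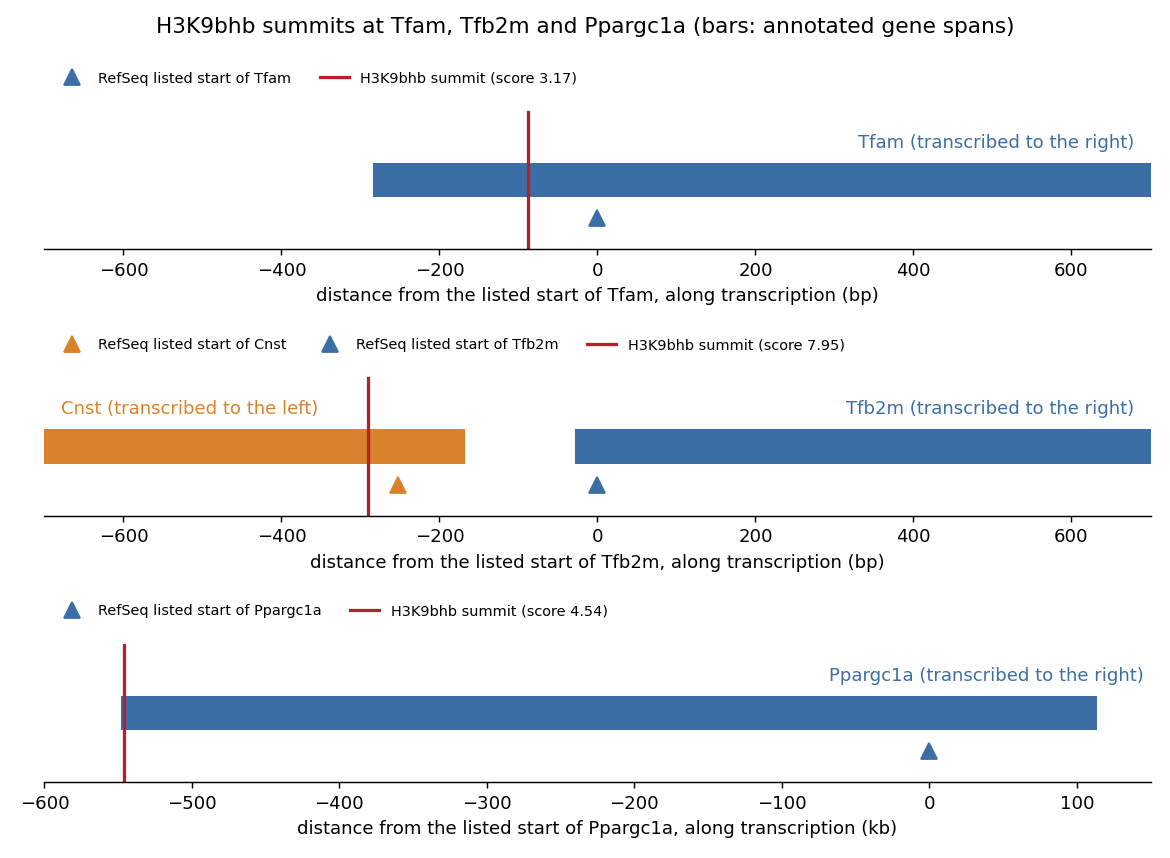
Position of the H3K9bhb summit (red line) relative to the listed RefSeq start (triangle, at 0) of Tfam and Tfb2m in bp and of Ppargc1a in kb, drawn in the direction of transcription of each, with bars for the annotated genes. The summits lie 88 bp, 290 bp and 545.9 kb upstream of the starts, and the Tfb2m summit lies inside Cnst.

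The other coactivators had no summit within 10 kb. Pprc1 (chromosome 19, 46056526 to 46072909, plus strand), which encodes the growth-responsive family member PRC, came closest. A summit at 46039471 with a score of 2.51 lay 17.1 kb from it, inside Ldb1, a gene for a LIM-domain binding cofactor whose nearer end was 7946 bp from the summit. The score was low and was reached by 90.7% of peaks. Ppargc1b (chromosome 18, 61291445 to 61400756), which encodes PGC-1β, was 114.6 kb from the nearest summit, which lay 219 bp from an end of Hmgxb3 and scored 6.04. Genes and RNAs inside or beside Ppargc1b, among them Mir378a, a microRNA within it, held no summit.

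The genes for NRF1 and the GABP complex likewise had none. Nrf1 (chromosome 6, 30047985 to 30153458, plus strand) was 249 kb from its nearest summit, beside Klhdc10. Gabpa (chromosome 16, 84834891 to 84863783, plus strand) was 131 kb from a summit with a score of 11.8, a value that 4.2% of peaks reached. The protein-coding gene end nearest to that summit, 14851 bp away, was that of Mrpl39, a gene for a mitochondrial ribosomal protein. Gabpb1 (chromosome 2, 126628907 to 126684435, minus strand) was 192 kb from a summit that lay 17 bp from an end of Trpm7. These distances straddle the typical one: over all protein-coding genes the median distance from a gene to the nearest summit was 222 kb, with quartiles of 53.3 and 725 kb.

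Of the remaining mitochondrial factors, Polrmt (chromosome 10, 79736125 to 79746604, minus strand), the mitochondrial RNA polymerase gene, was 31.7 kb from a summit 39 bp inside an end of Bsg, which encodes the surface protein basigin, with a score of 4.22. Tfb1m (chromosome 17, 3519250 to 3557796, minus strand), the ribosomal RNA methyltransferase gene, was the farthest of all at 1436.7 kb, from the first summit of its chromosome, beside Arid1b. For comparison, 86.6% of protein-coding genes had a summit as near or nearer than Tfb1m. The median distance over the 10 genes was 73.2 kb.

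**Figure D3:**
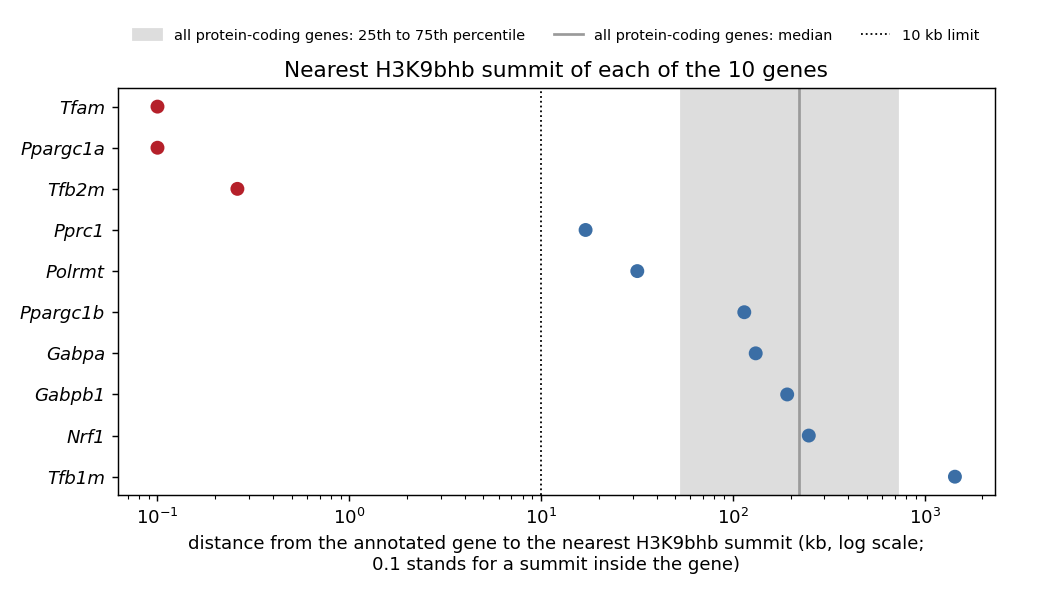
Distance in kb (log axis) from each of the 10 annotated genes to its nearest H3K9bhb summit, red for summits within 10 kb, with the 25th to 75th percentile of all protein-coding genes in grey. Ppargc1a and Tfam have a summit inside the gene, Tfb2m at 0.261 kb, and the other 7 range from Pprc1 at 17.1 kb to Tfb1m at 1436.7 kb.

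A shared promoter was not particular to Tfb2m. Gabpa begins 148 bp from the opposite start of Atp5j, which encodes a subunit of ATP synthase, and Tfb1m begins 69 bp from the opposite start of the non-coding RNA gene 1700102H20Rik. No summit was called in either promoter. In all, 21 annotated genes, coding and non-coding, overlapped the 10 or lay within 10 kb of them. Of these, 2 held a summit inside their span, Cnst and Ldb1, and the Cnst summit is the one counted for Tfb2m. The share of all annotated genes with a summit inside the span is not given here.

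Polrmt carried NRF1-type and ETS-type letters in its promoter without a summit, and is printed for that contrast (RefSeq, GRCm38.p6, minus strand, chr10:79746582-79746831). Capitals mark TGCGCA, 134 to 129 bases before the start, and CTTCCGG, which is CCGGAAG on the opposite strand, 43 to 37 bases before it.
Polrmt: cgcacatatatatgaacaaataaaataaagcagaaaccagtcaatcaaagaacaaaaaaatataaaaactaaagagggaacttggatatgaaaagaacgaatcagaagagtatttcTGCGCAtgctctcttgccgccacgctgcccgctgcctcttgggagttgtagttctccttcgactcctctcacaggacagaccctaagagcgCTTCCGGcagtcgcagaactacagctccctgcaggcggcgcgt

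A second TGCGCA lay 5 to 10 bases after the Polrmt start. Gabpa, the other gene with CCGGAAG, had it 93 to 87 bases before its start together with AAGATGGCG, the motif of the factor YY1, at 68 to 60 bases, both on the opposite strand. AAGATGGCG occurred in 1.4% of all windows, and TCAAGGTCA, the motif of the estrogen-related receptors that work with PGC-1α, in 0.423% and in none of the 9 genes. Nrf1 and Pprc1 had none of the 7 motifs searched. CCGGAAG was thus present in 1 gene with a summit at its start (Tfam) and 2 without (Gabpa and Polrmt), and TGCGCA in 1 with (Tfb2m) and 1 without (Polrmt).

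The base composition of the promoters was compared next, after the summits were seen. Promoter windows with a summit within 1 kb of the start held a median of 28 CG dinucleotides (quartiles 21 and 35, 2085 windows), and the other 30766 windows held a median of 6 (quartiles 3 and 18). These windows too are not limited to protein-coding genes. Tfam had 21 and Tfb2m 32, both within the quartiles of windows with a summit. Ppargc1a had 5 at its listed start, within the quartiles of the others. Among the genes without a summit, both Gabpb1 starts had 37 and the first Nrf1 start had 43, more than Tfam or Tfb2m. The remaining windows held 22 (Gabpa), 21 (Polrmt), 16 (Tfb1m), 14 (Pprc1) and 2 (the second Nrf1 start).

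**Figure D4:**
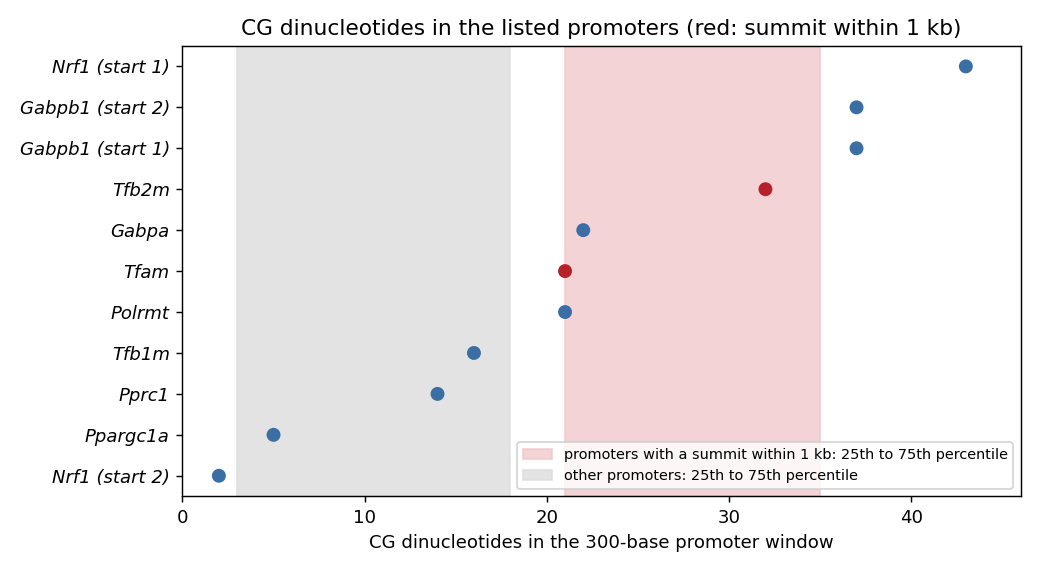
CG dinucleotides in the 300-base promoter window of each listed start, red for starts with a summit within 1 kb (Tfam 21, Tfb2m 32), blue for the others. Shading gives the 25th to 75th percentile of windows with a summit within 1 kb (21 to 35) and of other windows (3 to 18).

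Genes that act together with these 10 were counted by the same rule, in lists drawn up with earlier results of these data known. Of 26 transcription partners of PGC-1, 8 had a summit (30.8%, 95% interval 14.3 to 51.8), beside the 13.0% of all protein-coding genes. The partners with the highest scores were Perm1 (7.6), a muscle regulator of the same program, Crebbp (6.83), an acetyltransferase, Ppara and Nfe2l2 (6.78 each), a fatty acid receptor and the regulator of antioxidant genes, Med1 (4.09), a Mediator subunit, and Foxo1 (3.17). Ppara, Foxo1 and Crebbp had a summit 144, 316 and 748 bp upstream of their listed start, and Nfe2l2 had one 965 bp downstream. Foxo1 had a second summit, 1550 bp downstream of its start. A second summit counted for Crebbp (4.27) was nearer to an end of Trap1. The summits counted for Perm1 and Med1 were nearer to ends of Isg15 and Fbxl20. Yy1 (2.55) and Nr1h3 (2.49) completed the list; that of Yy1 was 388 bp upstream of its start, and that of Nr1h3 was nearer to an end of Madd. Esrra, Esrrb and Esrrg, the estrogen-related receptors, were among the 18 partners without a summit.

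Upstream regulators had a summit at 10 of 24 genes (41.7%, interval 22.1 to 63.4). The intervals of partners and regulators lie above the 13.0% of all protein-coding genes. They hold counting error only and the lists were drawn up with earlier results known, so no enrichment can be read from them. Counting a gene only where its own end was nearest to the summit left 8 of the 24 regulators and 5 of the 26 partners. The share of all protein-coding genes by that stricter rule is not given, so the 13.0% is no background for these counts. Mapk14, the p38α kinase gene, had 2 summits, with scores of 12.47 and 10.5 at 154 bp and 788 bp inside the gene. The higher was reached by 2.7% of peaks. A score of 10.5 was also counted for Akt1, but that summit lay 8902 bp outside it and 91 bp inside Siva1. Mtor (7.89) followed, 120 bp downstream of its start, then Crtc1 (6.78), a CREB coactivator, 178 bp upstream, and Prkab2 (5.41), a regulatory AMPK subunit, 454 bp downstream. Crtc2 (4.22) was counted through a summit nearer to Dennd4b. A second summit counted for Akt1 (2.62) lay 4112 bp outside it, nearer to an end of Zbtb42. The summits of Prkag2, Clk2, Fbxw7 and Sirt1, the deacetylase that acts on PGC-1α, scored 3.76, 3.33, 2.51 and 2.49. The Sirt1 summit lay 68 bp upstream of its start. That of Prkag2 was at the other end of its gene, 879 bp inside the transcript-end side and 44895 bp downstream of the nearest listed start. Prkaa1 and Prkaa2, the catalytic AMPK subunits, had none.

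Other genes for transcription and upkeep of mitochondrial DNA had a summit at 2 of 27 (7.41%, interval 0.91 to 24.3). They were Dna2, a nuclease and helicase, 87 bp upstream of its start, and Mterf3, a terminator-family factor, 48 bp outside the gene; both scored 2.77, which 84.5% of peaks reached. The polymerase genes Polg and Polg2, the helicase Twnk and the elongation factor Tefm had none. Within 1 kb of a listed start the counts were 5 of 26 partners (19.2%), 7 of 23 regulators (30.4%) and 1 of 23 maintenance genes (4.35%), beside the 9.18% of all genes. No difference between lists was tested.

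Gene length moves with these shares. In 5 classes of equal number by length, 4.72%, 10.9%, 13.6%, 17.0% and 18.6% of protein-coding genes had a summit, from the shortest to the longest. Tfam, Tfb2m and Pprc1 belong to the middle class, Polrmt to the one below, Gabpa, Gabpb1 and Tfb1m to the one above, and Ppargc1a, Ppargc1b and Nrf1 to the longest. The median length was 33.7 kb for the 10 genes, 76.9 kb for partners, 29.6 kb for regulators and 12.6 kb for maintenance genes; the part of length in the list counts was not tested.

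**Figure D5:**
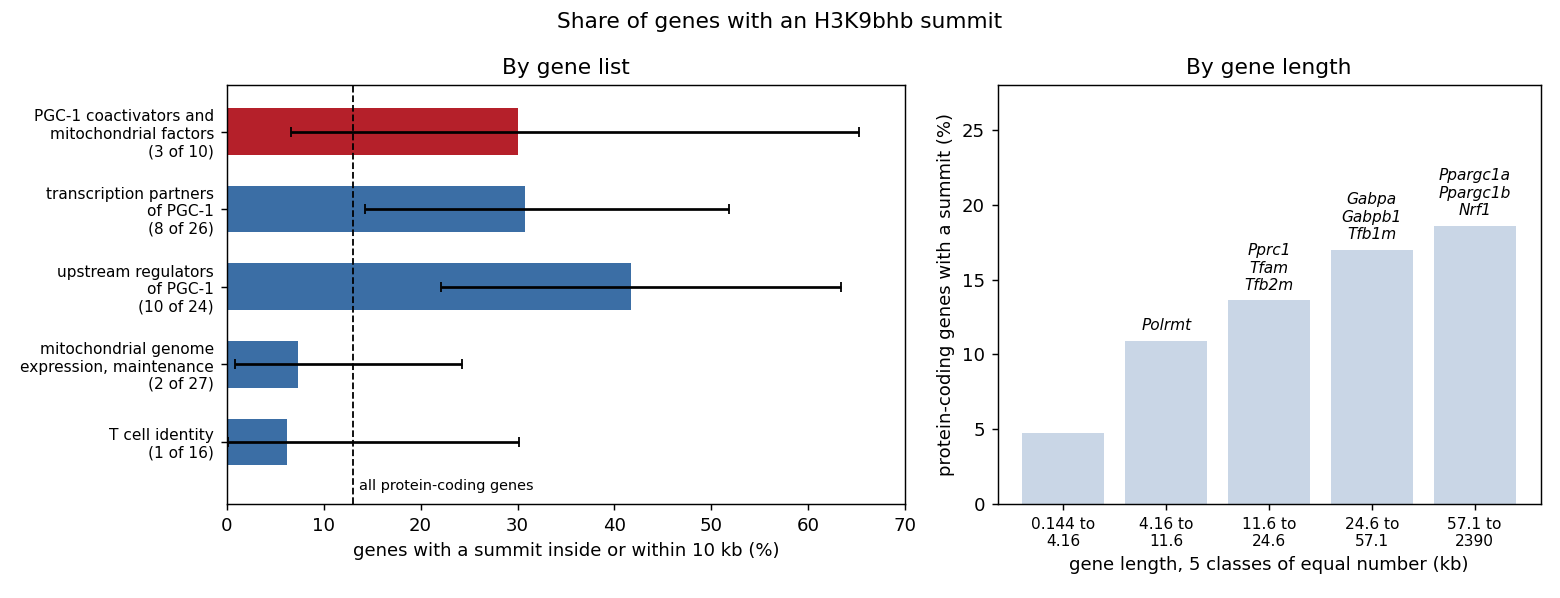
Left, percent of genes in each list with an H3K9bhb summit inside or within 10 kb (bars; exact 95% intervals as lines), with all protein-coding genes at 13.0% as a dashed line. Right, the same percent over all protein-coding genes in 5 classes of gene length in kb, rising from 4.72% to 18.6%, with the 10 genes named above their class.

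The count of 3 genes did not rest on the 10 kb limit. Tfam, Tfb2m and Ppargc1a were the genes with a summit at 2 kb and at 5 kb too, where 10.7% and 11.4% of all protein-coding genes had one. At 20 kb Pprc1 joined them, beside 16.2% of all genes. Among the upper 50% of peaks by score, Tfb2m was the 1 gene of the 10 left. The share of all protein-coding genes for those peaks is not given here, so this count has no background beside it.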

How the data were processed

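The 10 genes, the companion lists and the comparisons were chosen with earlier results of these data known. Per the submitters' processing notes, the build was mm10 and the tools were MACS2 2.1.2, Bowtie2 2.3.5, Trimmomatic 0.39 and FastQC 0.11.8. Neither the settings of the caller nor the use of the input is stated in the sources used here. The deposited list gives 2315 summits of 1 bp in 2204 peaks of the ChIP library, each with the authors' −log10 p or q value. Read counts and peak widths were not used here, so the depth behind a summit is unknown. With 1 ChIP library no test across samples was made.

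From the list, summits inside a gene or within 10 kb were counted with the RefSeq gene table (GRCm38.p6). Listed starts and strands came from the RefSeq promoter windows, which run from 250 bases before to 50 after the start. Nearest gene ends were sought among protein-coding genes. Motifs were matched exactly on both strands. All 10 genes, every neighbour within 10 kb of their summits and up to 6 list members by score were to be named; genes at the nearest summits of the other 7, further list members and those beside the 10 were added after their values were seen. Intervals are Clopper-Pearson. The counting functions were tested on simulated data. Calculations ran in Python 3.11.15 (scipy 1.17.1, pandas 2.3.3, numpy 2.4.6), with figures by matplotlib 3.10.9.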

Additional observations from a re-analysis of the deposited data

How the results depend on the processing

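Of 42 recalculated values, 31 stayed within 1.5 times the one reported and 11 did not. Among the upper 50% of peaks by score, 1 of the 10 genes, 4 transcription partners, 5 upstream regulators and 0 maintenance genes of the mitochondrial genome had a summit. Fewer peaks were used there, which lowers the share of any set of genes, and the share of all protein-coding genes is not given. With 20 kb flanks, 5 of 27 maintenance genes and 2 of 16 T cell identity genes had one, beside 16.2% of all protein-coding genes. Counting a gene only where its own end was nearest to the summit left 2 of the 10 genes, Ppargc1a and Tfam, 5 partners and 8 regulators. The share of all protein-coding genes by that stricter rule is not given, and the 13.0% belongs to the 10 kb rule. Over all annotated genes the background was 7.69%, against 13.0% of protein-coding genes. With 1 mismatch allowed in motifs of 8 or more letters, 6 of 9 genes had such a motif in their promoter window, against 2 with exact matches, and 32.3% against 5.18% of all windows did. Windows of 500 and 2000 bp around listed starts, chosen after seeing the data, left Tfam and Tfb2m as the genes of the 10 with a summit. At 500 bp the partners fell to 3 of 26, without Nfe2l2 and Crebbp. At 2000 bp Bcl11b entered as 1 T cell identity gene, against 0 at 1 kb. The counts of regulators and maintenance genes did not change. The share of all protein-coding genes for these windows is not given, so these counts have no background beside them. A narrower window can only lower the count of any set, and a wider one can only raise it. No paired analysis was possible because there is 1 ChIP library.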

Other observations

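Of 16 T cell identity genes, 1 had a summit inside or within 10 kb (6.25%, exact 95% interval 0.158 to 30.2), beside 13.0% of all protein-coding genes, which lies inside the interval, so no difference was shown. It was Bcl11b, a factor of T cell commitment, with a score of 7.89 at 1866 bp upstream of its listed start. Cd8a and Cd8b1, the co-receptor genes that define CD8+ cells, and the Cd3d, Cd3e, Cd3g and Cd247 receptor genes had none, so the labelled cell type cannot be read from summits at its own markers. A summit list does not measure expression.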
